A study of Mus musculus with 16 samples.

Results

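The 9 genes described here are the transcription factors Atf4, Atf5, Atf3, Ddit3, Cebpb and Cebpg and the feedback genes Trib3, Chac1 and Nupr1 of the ATF4 axis. They were taken as listed, by gene symbol, and 9 of the 9 were found among the 19108 gene symbols quantified. The libraries came from quadriceps muscle of C57BL/6 mice aged 6 months, with 4 libraries per sex and genotype. Tg mice carried the genotype ANT1(Tg)/+, a transgene that overexpresses Ant1, and WT mice were wild type; Tg and WT mice alike had regular chow. Ant1 is the older name of Slc25a4, the ADP/ATP carrier of the inner mitochondrial membrane. The labels do not give the promoter that drives the transgene or the number of founder lines.

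ATF4 is the main transcription factor of the integrated stress response. When a stress kinase phosphorylates the translation factor eIF2 alpha, most protein synthesis falls while translation of the Atf4 messenger rises, so the level of the messenger and that of the protein need not move together. ATF4 belongs to the basic leucine zipper (bZIP) family and binds C/EBP-ATF response elements (CAREs) as a dimer with partners such as C/EBP gamma, C/EBP beta and CHOP, the product of Ddit3. Its targets include amino acid synthesis and transport genes and also genes that feed back on the response, among them the pseudokinase Trib3 and the glutathione-degrading enzyme Chac1. In muscle this programme is known from mitochondrial myopathy.

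Library totals were 17435895 to 30680324 counts, and levels are given as counts per 1000000 (CPM) after TMM scaling (the trimmed mean of M-values). The targeted gene separated the genotypes in all 16 libraries: Slc25a4 was 8507 to 11044 CPM in Tg and 2792 to 3919 CPM in WT, a 2.88-fold difference (adjusted p = 4.89e-10, edgeR quasi-likelihood test). Skeletal muscle markers exceeded every other marker list in summed level in all 16 libraries; of 10, 1 rose in Tg (Myh1) and 2 fell (Myh4 and Tnnt3). Satellite cell markers summed to 161 to 195 CPM in Tg and 93.7 to 122 CPM in WT, with 2 of 6 higher and 1 lower. Itga7 alone gave 122 to 164 CPM of it in Tg and 60.1 to 90.5 CPM in WT, while the list's median log2 fold change was -0.12 and that of Pax7 -0.36; their part in the levels below was not tested. The summed level of 10 adipocyte markers was 728.9 to 2598 CPM in Tg and 964 to 5495 CPM in WT, with 0 of 10 called. It stood above 2 times the median of the 16 libraries in WT female 1, WT female 2 and WT male 1. In muscle tissue sequenced in bulk, fewer cells of a type and less RNA per cell cannot be told apart.

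The promoter windows of the 9 genes were searched for CARE letters. RefSeq windows of build GRCm38.p6, from 250 bases before to 50 bases after an annotated transcript start, were matched for 9 of 9 genes, with 2 windows for Atf5. The window of Atf3, that of Nupr1 and 1 of those of Atf5 lie at a start well inside the annotated gene span. The letters TGATGNAA, on either strand, were present in 4 of the 9 genes, namely Atf3, Trib3, Chac1 and Nupr1, compared with 3.97% of all 32851 windows. In Atf3, Chac1 and Nupr1 the match was the full element TGATGCAA read on the opposite strand (0.895% of all windows). The stretches that hold the matches are shown so that the position of the element can be compared. Capitals mark the match. For Atf3, Chac1 and Nupr1 they are the bases before the start, and for Trib3 30 bases around the match, which lies after the start.
Atf3, chr1:191183334-191183583, minus strand: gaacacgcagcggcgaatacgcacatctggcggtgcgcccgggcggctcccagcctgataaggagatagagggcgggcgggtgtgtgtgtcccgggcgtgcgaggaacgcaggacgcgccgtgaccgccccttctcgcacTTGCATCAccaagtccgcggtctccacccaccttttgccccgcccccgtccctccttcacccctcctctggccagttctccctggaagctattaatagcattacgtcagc
Chac1, chr2:119350992-119351241, plus strand: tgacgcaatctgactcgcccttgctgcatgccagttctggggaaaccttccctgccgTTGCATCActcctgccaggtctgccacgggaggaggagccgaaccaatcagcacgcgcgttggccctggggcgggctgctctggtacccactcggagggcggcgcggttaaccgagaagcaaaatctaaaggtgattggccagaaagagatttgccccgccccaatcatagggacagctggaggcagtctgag
Nupr1, chr7:126625471-126625720, minus strand: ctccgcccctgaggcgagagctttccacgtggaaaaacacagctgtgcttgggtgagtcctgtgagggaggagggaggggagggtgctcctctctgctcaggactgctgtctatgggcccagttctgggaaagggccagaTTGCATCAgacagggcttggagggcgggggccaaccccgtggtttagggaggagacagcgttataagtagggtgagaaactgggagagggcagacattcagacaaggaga
Trib3, chr2:152344028-152344057, minus strand: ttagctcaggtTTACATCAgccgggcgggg
The first base of the match was 110 bases before the start in Atf3 and in Nupr1 (position -110 in each), at -193 in Chac1 and at 15 in Trib3. Within the 150 bases directly before the start, 2 genes held the letters, Atf3 and Nupr1, compared with 2.23% of all windows. The match of Trib3, after the start, lies outside that stretch.

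The letters TGACG, the core of the cAMP response element, were found on either strand in Atf4, Atf3, Cebpb, Trib3 and Chac1, 5 of the 9 genes, compared with 20.8% of all windows. The full element TGACGTCA was found in 0 of 9 (1.79% of all windows), as were the C/EBP-like letters TTGCNNAA (10.8%) and the endoplasmic reticulum stress element ERSE (0.119%). CCAAT alone was in the windows of 6 genes (37.4% of all windows). Per gene, TGATGNAA was present in 299 of the 10721 tested genes with a window (2.79%). It was present in 19 of 222 other genes called higher in Tg by at least 1 on the log2 scale (8.56%), and in 2 of 120 called lower by as much (1.67%). Among other known ATF4 targets it was present in 12 of 32 (37.5%). Targets called higher by as much, such as Asns and Fgf21, count in both shares, so the shares are not separate observations. A gene can be listed as an ATF4 target because such letters were known in it. The shares among the known targets and the members may thus follow from the listing. These matches describe letters in a window and not bound sites.

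**Figure D1:**
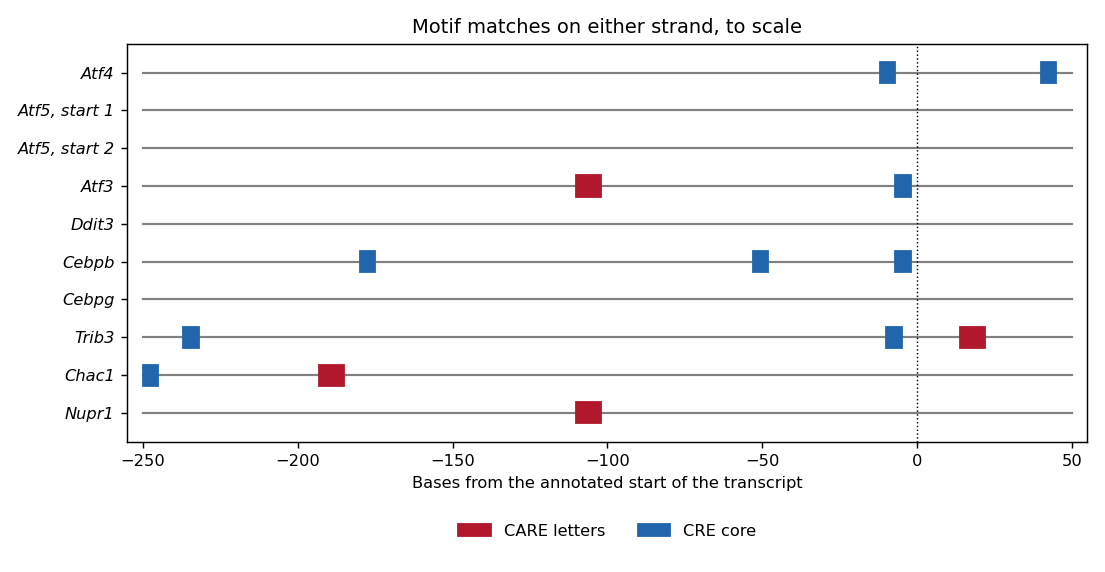
Positions of the CARE letters (TGATGNAA, red) and of the cAMP response element core (TGACG, blue) on either strand, in bases from the annotated transcript start, for the promoter windows of the 9 genes. Red marks appear in Atf3, Trib3, Chac1 and Nupr1.

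Averaged over the sexes, 8 of the 9 genes rose in Tg muscle and 0 fell, at a Benjamini-Hochberg adjusted p under 0.05 in the edgeR fit; 17.2% of the 13666 tested genes were called higher, 13.3% lower and 30.4% in either direction. The median log2 fold change of the 9 was 1.34, compared with -0.01 over all tested genes. A rise of at least 1 on the log2 scale was seen in 7 of the 9, and in 2.27% of all tested genes. In 6 of them, Atf4, Atf5, Ddit3, Cebpg, Trib3 and Nupr1, every Tg library lay above every WT library, as did 5.23% of all tested genes; no member had every Tg library below every WT library (2.69% of all tested genes). The 4 genes whose windows hold the CARE letters shown above had log2 fold changes of 0.96 to 5.73, and the 5 others of 0.60 to 3.31. P-values measure the spread between these 16 libraries.

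**Figure D2:**
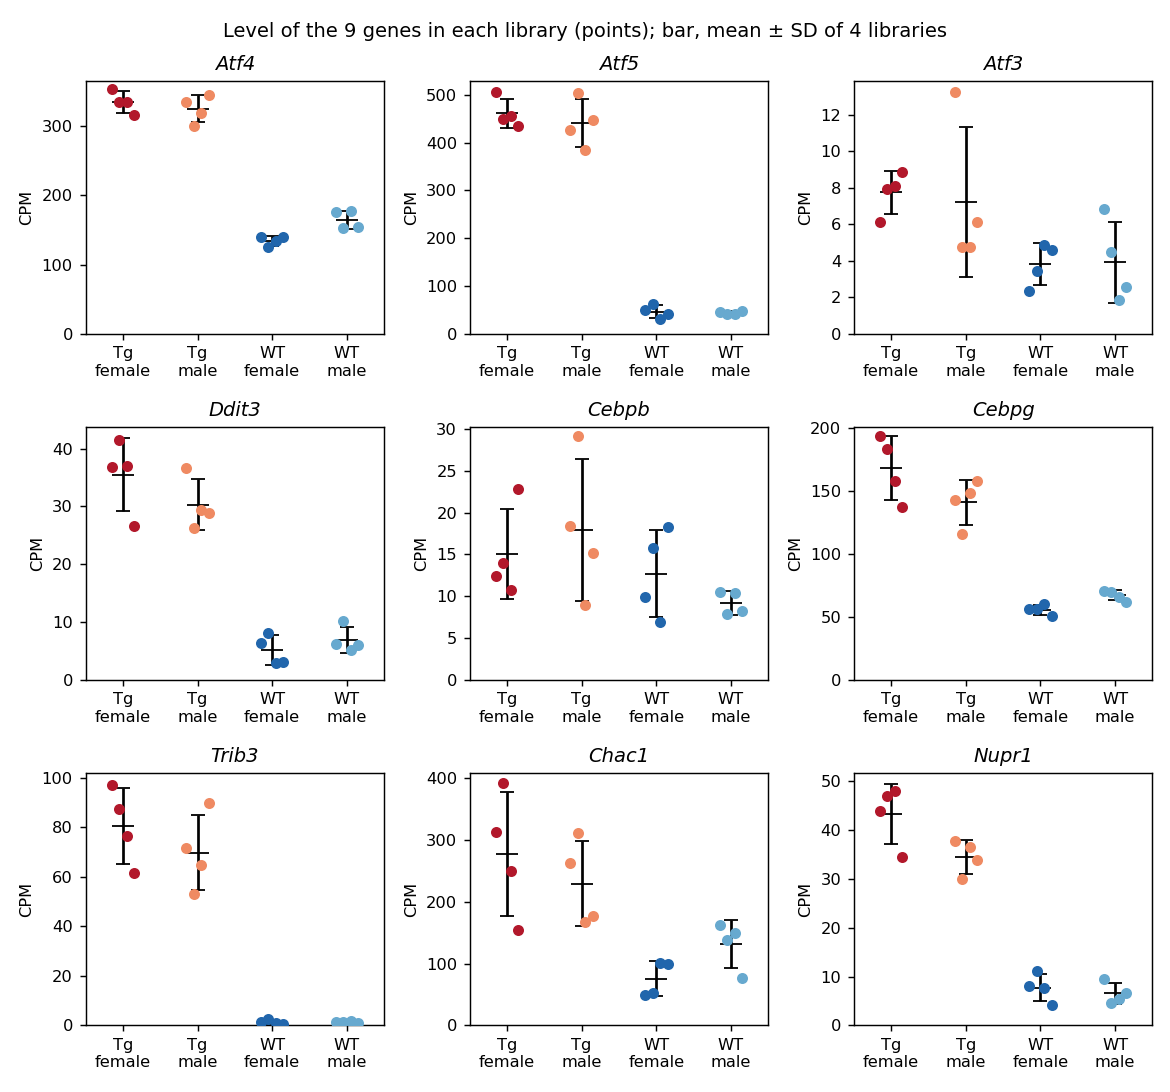
Level in CPM of each of the 9 genes in the 16 libraries (points), with the mean and SD of the 4 libraries of each group (bars), Tg females and Tg males left of WT females and WT males. Tg and WT points do not overlap for 6 genes, and overlap for Atf3, Cebpb and Chac1.

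Atf4 itself (chr15:80255184-80257541, plus strand, mm10) had 353, 335, 335 and 316 CPM in Tg females and 335, 300.2, 319 and 345 CPM in Tg males, against 139, 125, 134 and 140 CPM in WT females and 175, 153, 177 and 154 CPM in WT males. The libraries of each genotype lay close together, and the lowest Tg library was 1.70 times the highest WT library. The fold was 2.22 (log2 1.15, SE 0.05, adjusted p = 1.57e-10). Within WT muscle, males lay above females.

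Atf5 (chr7:44812256-44816658, minus strand), the ATF4 paralog linked to the mitochondrial unfolded protein response and related to ATFS-1 of Caenorhabditis elegans, rose 9.92-fold (log2 3.31, SE 0.11, adjusted p = 3.28e-12). It had 505, 450.2, 456 and 434 CPM in Tg females and 426, 505, 386 and 448 CPM in Tg males, against 50.4, 62.1, 32.0 and 41.6 CPM in WT females and 46.4, 42.3, 42.1 and 46.8 CPM in WT males. No Tg library came near a WT library, the lowest being 6.21 times the highest WT one. Atf5 shares 82 bases of exon (4.11%) with Nup62 and Il4i1 on the opposite strand, whose log2 fold changes were 0.44 and -0.58.

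Ddit3 (chr10:127290774-127296288, plus strand), which encodes the pro-apoptotic factor CHOP, had 36.8, 41.6, 37.0 and 26.6 CPM in Tg females and 36.6, 26.2, 29.4 and 28.9 CPM in Tg males, against 6.31, 8.12, 2.94 and 3.09 CPM in WT females and 6.19, 10.1, 5.20 and 5.91 CPM in WT males. The genotypes did not overlap, and WT male 2 and WT female 2 were the highest WT libraries. The log2 fold change was 2.46 (SE 0.21, adjusted p = 6.49e-07). Ddit3 shares 68 bases of exon (3.97%) with Mars on the opposite strand, itself an ATF4 target with a log2 fold change of 1.11. Libraries were stranded, but whether the counting used strand is not given in the sources used here, so the share of such reads was not tested.

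Cebpg (chr7:35046422-35056573, minus strand), whose product is a dimer partner of ATF4 without a strong activation domain of its own, rose 2.52-fold (log2 1.33, SE 0.08, adjusted p = 2.80e-09). It had 194, 183, 158 and 137 CPM in Tg females and 142, 116, 148 and 157 CPM in Tg males, against 55.9, 56.2, 59.9 and 50.3 CPM in WT females and 70.7, 69.4, 65.6 and 61.8 CPM in WT males. The lowest Tg library was 1.64 times the highest WT library, and the mean was 154 ± 24.9 CPM in Tg and 61.2 ± 7.07 CPM in WT (SD, n = 8 each).

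Cebpb (chr2:167688915-167690418, plus strand), the C/EBP factor of inflammation and fat cell differentiation, was the member not called. It had 12.4, 14, 10.8 and 22.8 CPM in Tg females and 18.4, 29.2, 8.93 and 15.1 CPM in Tg males, against 9.90, 15.7, 6.88 and 18.3 CPM in WT females and 10.5, 7.81, 10.4 and 8.17 CPM in WT males. The genotypes overlapped broadly, with 3 of 8 Tg libraries above every WT library. The log2 fold change was 0.60 (SE 0.25, adjusted p = 0.0887). It was called by DESeq2 (0.58, adjusted p = 0.0469), without Tg male 3 (0.71, adjusted p = 0.0313) and without WT female 4 (0.71, adjusted p = 0.0485). Cebpb shares 312 bases of exon (20.7%) with Tmem189 on the opposite strand, which had 12.7 ± 0.842 CPM in Tg and 16.3 ± 2.35 CPM in WT (SD, n = 8 each).

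Atf3 (chr1:191170296-191218039, minus strand), a stress-inducible bZIP factor that often acts as a repressor, rose 1.95-fold (log2 0.96, SE 0.28, adjusted p = 0.0184). It had 6.10, 7.93, 8.11 and 8.86 CPM in Tg females and 13.3, 4.74, 4.75 and 6.14 CPM in Tg males, against 2.35, 3.44, 4.86 and 4.58 CPM in WT females and 6.82, 4.48, 1.85 and 2.56 CPM in WT males. The female genotypes were separate, and in males Tg male 1 stood above the rest while WT male 1 lay above the other 3 Tg males. Without Tg male 1 the log2 fold change was 0.72 (adjusted p = 0.0384).

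Among the feedback genes, Trib3 had the largest rise of the 9 and ranked 11 of the 13666 tested genes by increase. Its product is a pseudokinase that is induced by ATF4 and CHOP and that restrains both, as well as AKT. Trib3 (chr2:152337422-152344032, minus strand) had 97.2, 87.5, 76.5 and 61.5 CPM in Tg females and 71.5, 53.2, 64.7 and 89.7 CPM in Tg males, against 1.31, 2.71, 0.961 and 0.607 CPM in WT females and 1.52, 1.33, 1.64 and 1.17 CPM in WT males. The WT libraries rested on 11 to 52 counts each and the Tg libraries on 1256 to 2676, and the lowest Tg library was 19.6 times the highest WT library. The fold was 53.2 (log2 5.73, SE 0.23, adjusted p = 1.57e-10). Of its paralogs, Trib1 and Trib2 were not called (log2 fold changes of -0.23 and -0.16).

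Nupr1 (chr7:126623249-126630861, minus strand), a small stress-induced chromatin protein, rose 5.43-fold (log2 2.44, SE 0.18, adjusted p = 8.70e-08). It had 43.9, 46.97, 47.98 and 34.4 CPM in Tg females and 37.8, 29.9, 36.5 and 33.9 CPM in Tg males, against 7.98, 11.1, 7.58 and 4.25 CPM in WT females and 9.54, 4.57, 5.49 and 6.59 CPM in WT males. No libraries of the genotypes overlapped.

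Chac1 (chr2:119351229-119354381, plus strand), which cleaves glutathione, rose 2.53-fold (log2 1.34, SE 0.24, adjusted p = 0.000859). It had 314, 392, 249.9 and 154 CPM in Tg females and 264, 311, 167 and 177 CPM in Tg males, against 48.5, 53.2, 101 and 99.1 CPM in WT females and 163, 138, 150.4 and 76.3 CPM in WT males. Of the 8 Tg libraries, 7 lay above every WT library, and Tg female 4 (154 CPM) lay below WT male 1 (163 CPM). Its paralog Chac2, which cleaves glutathione more slowly, fell in Tg (log2 fold change -0.37, SE 0.09, adjusted p = 0.00389).

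Library makeup was compared with these values. Without the 3 adipocyte-rich WT libraries the log2 fold changes were 6.15 for Trib3, 3.47 for Atf5, 2.81 for Ddit3 and 2.73 for Nupr1, each at least as large as with them. They were 1.17 for Chac1 (adjusted p = 0.00736), 0.98 for Atf3 (adjusted p = 0.0242) and 0.61 for Cebpb (adjusted p = 0.191). WT female 2, with 5477 CPM of adipocyte markers, was the highest WT female for Atf5, Ddit3, Trib3 and Nupr1, and WT male 1, with 5495 CPM, was the highest WT male for Atf3, Cebpb, Cebpg, Chac1 and Nupr1. WT female 2 was also the lowest WT female for Atf4, and WT female 1, with 4117 CPM, was the highest for 0 of the 9 and the lowest for Atf3 and Chac1. Summed macrophage markers were 51.4 to 261 CPM in Tg and 90.8 to 285 CPM in WT, with 0 of 10 called. The part of these markers in the spread of the 9 genes was not tested.

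The sexes were also compared one at a time. In males 6 of the 9 genes rose and 0 fell, beside 9.85% of tested genes higher and 8.39% lower. They were Atf4, Atf5, Ddit3, Cebpg, Trib3 and Nupr1. In females the same 6 and Chac1 rose and 0 fell, 7 of 9, beside 10.1% of tested genes higher and 7.57% lower. Atf5 showed the same log2 fold change in each sex, 3.31, and Trib3 showed 5.62 in males and 5.84 in females. The log2 fold change of Ddit3 was 2.15 in males and 2.78 in females, and that of Nupr1 2.40 in males and 2.48 in females. Cebpg showed 1.08 in males and 1.59 in females, and Atf4 0.98 in males and 1.32 in females.

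The other 3 genes were not called in one or both sexes. For Chac1 the log2 fold change was 0.80 in males (SE 0.34, adjusted p = 0.130) and 1.88 in females (SE 0.35, adjusted p = 0.00236). Chac1 in males was called with library totals in place of TMM (0.89, adjusted p = 0.0499), and in females it was 1.46 without the 3 adipocyte-rich libraries (adjusted p = 0.0358). For Atf3 the log2 fold change was 0.89 in males (adjusted p = 0.150) and 1.04 in females (adjusted p = 0.0893). In males it was 1.28 without WT male 1 (adjusted p = 0.0429), 1.26 without the 3 adipocyte-rich libraries (adjusted p = 0.0416) and 0.41 without Tg male 1 (adjusted p = 0.537). In females Atf3 was called by DESeq2 (adjusted p = 0.0412), with each sex fitted alone (adjusted p = 0.0198) and without Tg male 1 (adjusted p = 0.0461), and it was 0.71 without the 3 adipocyte-rich libraries (adjusted p = 0.302). For Cebpb it was 0.96 in males (adjusted p = 0.0834) and 0.24 in females (adjusted p = 0.669). Cebpb in males was called by DESeq2 (0.93, adjusted p = 0.0322) and without Tg male 3 (1.18, adjusted p = 0.0297).

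**Figure D3:**
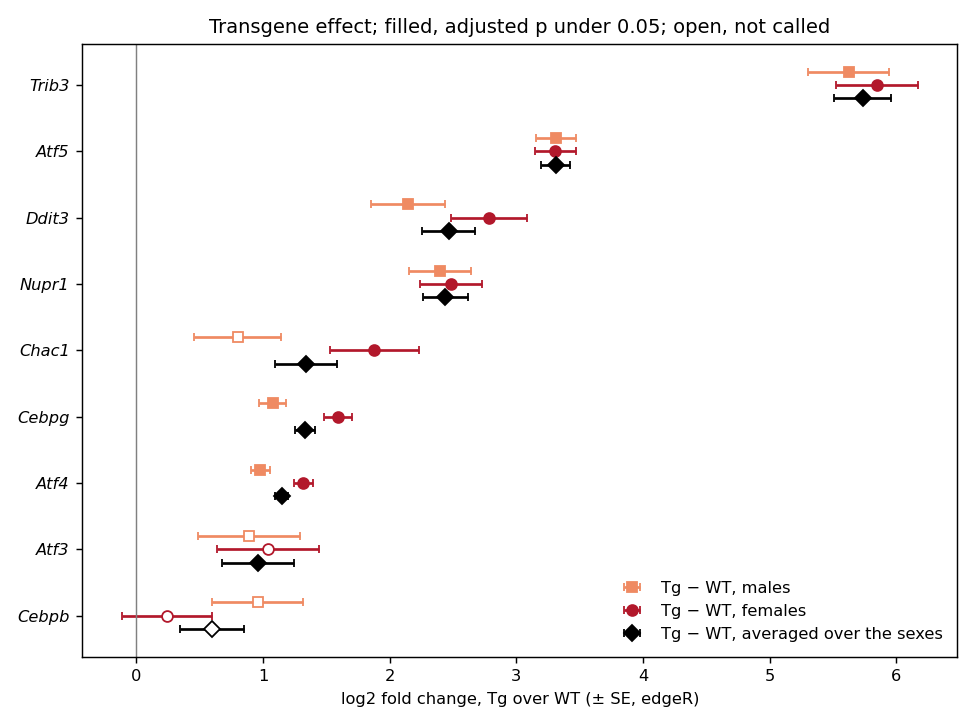
Log2 fold change of Tg over WT with its SE for each of the 9 genes, in males, in females and averaged over the sexes; filled symbols have an adjusted p under 0.05. Trib3 and Atf5 lie farthest right, and the male point of Chac1 is open while its female point is filled.

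The difference between the sexes in the genotype effect was tested directly, and 0 of the 9 genes were called by edgeR (0.00732% of tested genes, 1 gene). At an unadjusted p under 0.05 there were 3 members among 1015 genes. The male minus female differences in effect were -0.34 for Atf4 (edgeR adjusted p = 0.409), -0.52 for Cebpg (adjusted p = 0.383) and -1.08 for Chac1 (adjusted p = 0.647), on the log2 scale. DESeq2 called 1 member, Atf4 (-0.36, adjusted p = 0.0443). For Chac1 the difference in effect was -0.58 without the 3 adipocyte-rich libraries. Slc25a4 itself had log2 fold changes of 1.37 in males and 1.68 in females (difference -0.32, edgeR adjusted p = 0.678). Its part in the differences of the members was not tested.

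Levels were then compared between the sexes within a genotype. Atf4 averaged 165 ± 12.9 CPM in WT males and 134 ± 6.93 CPM in WT females (SD, n = 4 each; log2 difference 0.29, edgeR adjusted p = 0.0344), the 1 member called of 9 (2.01% of tested genes called higher, 1.65% lower and 3.67% in either direction). The call was lost without the adipocyte-rich libraries (0.26, adjusted p = 0.198) and when WT female 1, 2 or 3, WT male 1 or 3, or Tg female 3 was left out (adjusted p up to 0.122), while the difference stayed between 0.26 and 0.31. With the adipocyte marker covariate it was 0.29 (adjusted p = 0.0512). Cebpg averaged 66.9 ± 3.99 CPM in WT males and 55.6 ± 3.95 CPM in WT females (SD, n = 4 each; edgeR adjusted p = 0.227), and Chac1 averaged 132 ± 38.5 CPM in WT males and 75.5 ± 28.6 CPM in WT females (SD, n = 4 each; edgeR adjusted p = 0.257). The log2 difference of Chac1 was 0.81, and 0.30 without the 3 adipocyte-rich libraries. In Tg, 0 of 9 were called between males and females (0.527% of tested genes). At an unadjusted p under 0.05 there was 1 member, Cebpg, among 1286 of the 13666 tested genes (log2 difference -0.25, edgeR adjusted p = 0.484).

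Scaled by exon length, the order of the 9 genes differed between the genotypes. In Tg muscle Atf5 was highest at 226 CPM per kb, followed by Chac1 at 155, Atf4 at 140, Trib3 at 35.4, Cebpg at 27.5, Ddit3 at 19.2, Nupr1 at 15.5, Cebpb at 10.9 and Atf3 at 3.48 CPM per kb. In WT muscle Atf4 and Chac1 led at 63.4 CPM per kb each, followed by Atf5 at 22.8, Cebpg at 10.9, Cebpb at 7.28, Ddit3 at 3.49, Nupr1 at 2.84, Atf3 at 1.79 and Trib3 at 0.661 CPM per kb. Trib3 thus ranked 4 of 9 in Tg and 9 of 9 in WT. Neighbours in these orders had overlapping library ranges, except Atf4 and Trib3 in Tg and Atf5 and Cebpg in WT.

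**Figure D4:**
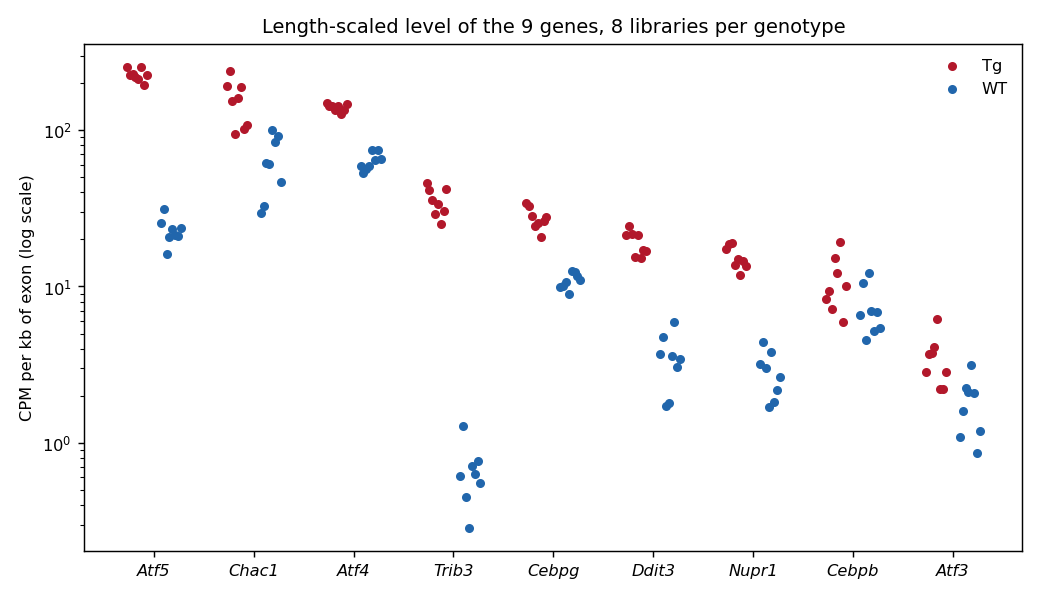
Length-scaled level, in CPM per kb of exon on a log axis, of each of the 9 genes in the 8 Tg and the 8 WT libraries, 1 point per library, ordered by the Tg mean. Trib3 shows the widest gap between the genotypes, and the points of Chac1, Cebpb and Atf3 overlap.

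The relation to the level of Slc25a4, in which the transgene and the endogenous gene cannot be told apart, was examined within each genotype, since Tg and WT libraries form separate clusters of Slc25a4. Of 18 relations (9 genes in 8 Tg and in 8 WT libraries), 0 passed an adjusted p under 0.05 with Pearson's r and an exact permutation test. At an unadjusted p under 0.05 there were 3, all in Tg. The other tested genes were not examined in this way, so how common such r values are over all genes is not known. Both levels of a library were divided by its TMM factor. In Tg this was 0.934 and 0.946 in females 1 and 2, the highest in Slc25a4, and 1.105 in female 4, the lowest. Tg male 1 (1.08, 9925 CPM of Slc25a4) and Tg male 2 (0.967, 9448 CPM) go against that order. The part of this shared scaling in the relations was not tested, and library totals were not used for them. Across Tg libraries Chac1 had r = 0.87 (exact permutation p = 0.00511, adjusted p = 0.0571) and rho = 0.93 (exact permutation p = 0.00223, adjusted p = 0.0402). Ddit3 had r = 0.84 (exact permutation p = 0.00635, adjusted p = 0.0571) and rho = 0.76 (exact permutation p = 0.0368, adjusted p = 0.221). Cebpg had r = 0.72 (exact permutation p = 0.0400, adjusted p = 0.214) and rho = 0.64 (exact permutation p = 0.0962, adjusted p = 0.346).

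The libraries farthest from the median of Slc25a4 were Tg female 1 and Tg female 2. Without them r was 0.76 for Chac1 (exact permutation p = 0.0681), 0.73 for Ddit3 (exact permutation p = 0.0972) and 0.15 for Cebpg (exact permutation p = 0.743). The relation of Cebpg thus rests on these libraries. Leaving out Tg female 1 alone gave r = 0.87 for Chac1 and 0.85 for Ddit3, and leaving out Tg female 2 alone gave r = 0.80 for Chac1 and 0.76 for Ddit3. Within sex, as deviations from the sex means, r was 0.86 for Chac1 (exact permutation p = 0.0156) and 0.82 for Ddit3 (exact permutation p = 0.0347), with adjusted p of 0.281 and 0.312. With 1 Tg library left out, Chac1 had r = 0.96 without Tg male 2 (exact permutation adjusted p = 0.00714) and r = 0.80 to 0.88 without any other (exact permutation adjusted p = 0.0589 to 0.277). Trib3 and Nupr1 had r = 0.70 and 0.67 in Tg libraries, Atf4 and Atf5 r = 0.60 and 0.46, and Atf3 r = 0.11. Cebpb had r = -0.27, and none of these relations was called. Without Tg female 1 and Tg female 2, r was 0.36 for Trib3 and 0.36 for Nupr1.

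In WT libraries r ran between -0.70 for Nupr1 (exact permutation p = 0.0609; rho = -0.79, exact permutation p = 0.0279, adjusted p = 0.221) and 0.65 for Atf4 (exact permutation p = 0.0907). Within sex r was -0.78 for Nupr1 (exact permutation p = 0.0642, adjusted p = 0.350) and 0.10 for Atf4 (exact permutation p = 0.797). For Atf5 in WT r was -0.05 with all libraries and -0.91 without WT female 3 (exact permutation adjusted p = 0.0381). On the log2 CPM scale used here Slc25a4 spanned 13.05 to 13.43 in Tg and 11.45 to 11.94 in WT.

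**Figure D5:**
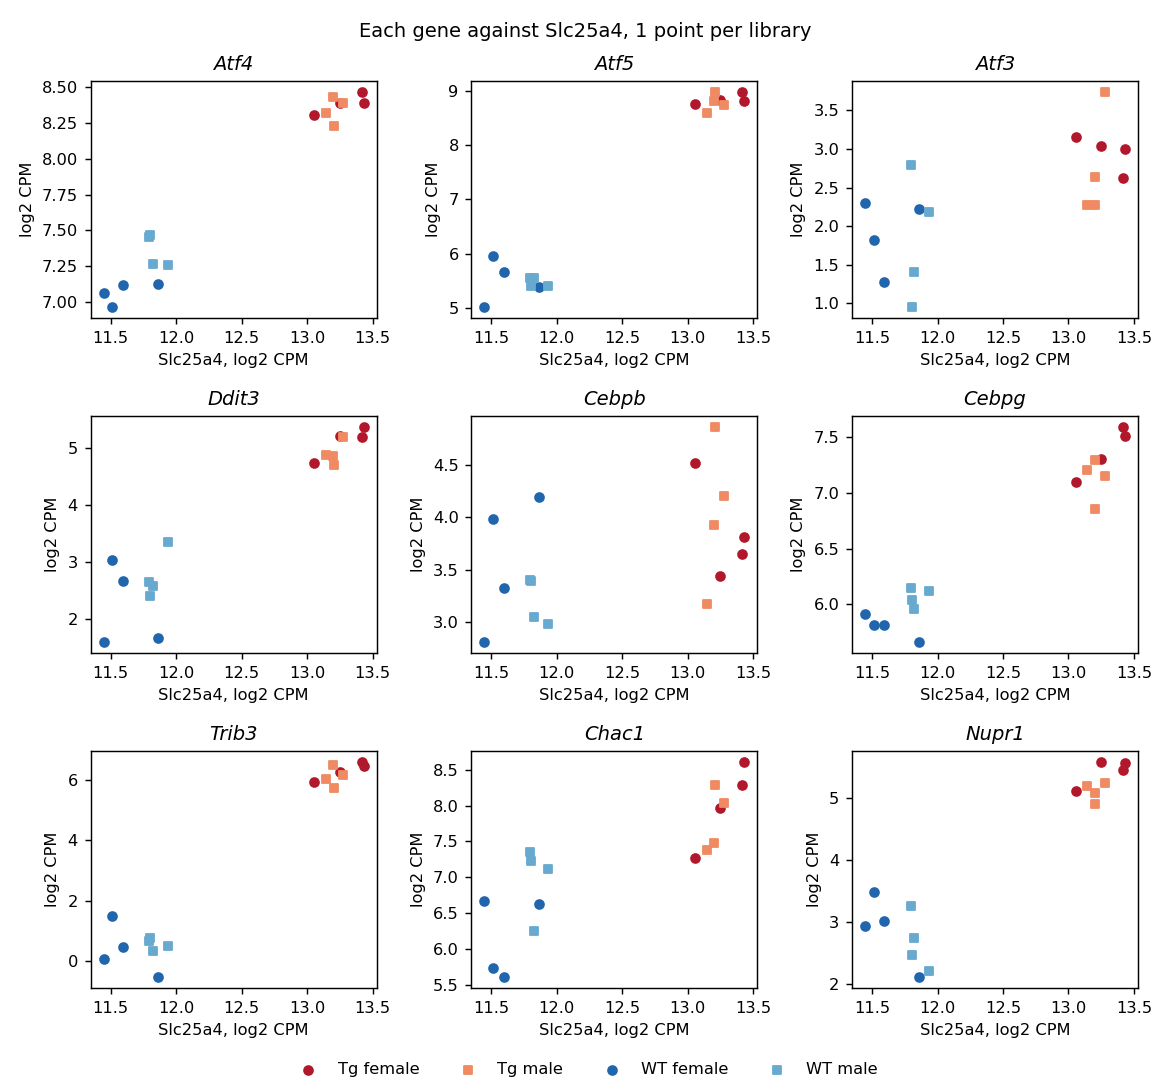
Level of each of the 9 genes against that of Slc25a4, both in log2 CPM, 1 point per library, with Tg females and Tg males and then WT females and WT males in the legend. Tg and WT libraries form separate clusters, and within the Tg cluster Chac1 and Ddit3 have r = 0.87 and 0.84 with Slc25a4, neither called. Both axes are scaled by the same TMM factor of the library.

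Some libraries were low or high for several members at once. Tg female 4 was the lowest Tg female for 7 of the 9 genes and the highest for Atf3 and Cebpb, and it also had the lowest Slc25a4 of the Tg libraries (8507 CPM). Tg male 2 was the lowest Tg male for 6 genes and the highest for Atf5, Cebpb and Chac1. In both libraries Cebpb was the highest of its group where Trib3, Nupr1, Ddit3, Atf4 and Cebpg were the lowest. Their summed adipocyte markers were 2598 CPM in Tg female 4 and 2553 CPM in Tg male 2. Tg male 1, with 2478 CPM, was the highest Tg male for Atf3, Ddit3 and Nupr1 and the lowest for 0 of the 9; the part of these markers in the levels was not tested.

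The genes most like each member were ranked by Pearson's r of log2 CPM over the 16 libraries, among 10760 genes, as a description that the genotype difference dominates. Atf4 was most like the seryl-tRNA synthetase Sars (r = 0.991), followed by Cyb5r1 (r = 0.988) and Gars (r = 0.986). Atf5 and Trib3 were each most like Aldh18a1 of proline synthesis (r = 0.994 for both) and had r = 0.992 with each other. Nupr1 was most like the serine synthesis enzyme Psat1 (r = 0.989) and asparagine synthetase Asns (r = 0.984), and Ddit3 most like the sulfiredoxin gene Srxn1 (r = 0.977). Cebpg was most like Arhgef2 (r = 0.986), Chac1 most like Siah2 (r = 0.915), Cebpb most like H2afj (r = 0.916) and Atf3 most like Rbbp4 (r = 0.909).

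Other genes of the pathway give the setting. Over all tested genes, averaged over the sexes, 17.2% were called higher and 13.3% lower. Of 42 other known ATF4 targets tested, 38 rose and 1 fell (Vldlr), with a median log2 fold change of 1.49. Mthfd2, of mitochondrial folate metabolism, rose 72.9-fold, the amino acid transporter Slc7a5 51.8-fold, Aldh18a1 22.8-fold and the glycyl-tRNA synthetase Gars 3.37-fold. Phgdh, Slc38a2 and Ddit4 were not called; these and Vldlr are named because they are the exceptions, after their values were seen.

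Of 7 targets attributed to CHOP, 4 rose and 1 fell (Bcl2, an exception named after its values were seen). The growth arrest gene Gadd45a rose 7.91-fold, Ppp1r15a, the phosphatase subunit that reverses eIF2 alpha phosphorylation, 1.82-fold, the oxidase Ero1l 1.62-fold and the pro-apoptotic Bbc3 2.06-fold. Of 17 genes upstream of ATF4, 5 rose and 2 fell with a median of 0.09, among them Gcn1l1 at 0.45, Eif2b4 at 0.23 and Nck1 at -0.25 on the log2 scale. The largest of these rises was that of Ppp1r15a (0.87), which is counted in both lists. Eif2b4 lost its call when the 3 adipocyte-rich libraries were left out (adjusted p = 0.0601), as did Nck1 with library totals (adjusted p = 0.0669).

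Among other bZIP factors, of 34 tested of 43 listed, 9 rose and 5 fell, with a median log2 fold change of 0.06. The counts of this and the next lists stand beside 17.2% of all tested genes called higher and 13.3% lower. Atf6, a sensor of endoplasmic reticulum stress, rose 1.97-fold, Nfe2l1, which drives proteasome genes, 1.57-fold and the small Maf gene Mafg 1.62-fold, while the circadian factor Hlf fell (log2 -0.89). Of 17 endoplasmic reticulum targets of ATF6 and XBP1, 7 rose and 1 fell (Dnajc3, -0.37), with a median of 0.16; Dnajb11 and Canx rose by 0.22 and 0.31 on the log2 scale, and Sel1l by 0.17, a call lost without the 3 adipocyte-rich libraries (adjusted p = 0.177). Of 11 mitochondrial chaperones and proteases, 8 rose and 1 fell (Clpx, -0.32), led by Hspa9 at 2.44-fold. Of 15 tested immediate early genes 6 rose and 1 fell, with Egr1 2.71-fold and Junb 1.83-fold higher, and their summed level overlapped between Tg (220 to 372 CPM) and WT (163 to 383 CPM).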

How the data were processed

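Poly(A) RNA of 16 quadriceps samples was sequenced as stranded paired-end libraries, per the labels. The authors deposited values per gene symbol without naming the unit; they were taken as estimated counts (expected counts), since 95.02% of nonzero values are whole (within 0.01, or 1e-05 of their size) and totals differ between libraries. Before deposit the authors trimmed and aligned the reads behind these estimated counts: cutadapt 1.2.1, bcl2fastq, Bowtie2 and TopHat2 are listed in the submitters' processing notes, with build mm10. No source used here names the counting program. Counts were rounded (by at most 0.5) and tested in R 4.3.3 with edgeR 4.0.16: filterByExpr (minimum count 10, minimum total 15), TMM factors (0.887 to 1.10), 1 mean per group, robust quasi-likelihood F tests and Benjamini-Hochberg adjustment over 13666 genes, with calls at an adjusted p under 0.05. The SE is the size of the log2 fold change divided by the square root of F. Log2 CPM used a prior count of 2. A count of 0 allows up to 3 counts, 0.0978 to 0.172 CPM, which covers counting error only.

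Gene positions and exon lengths are from GENCODE M21 (mm10), in which 18749 symbols matched 1 gene, 38 several and 321 none. On simulated counts for the averaged contrast (13667 genes), 97 of 100 genes changed by 1 and 99 of 99 changed by 2 on the log2 scale were recovered, with 15 false calls. Far fewer genes were changed there than were called here, evenly up and down, and no library was made adipocyte-rich. These rates need not hold for the real libraries. Relations to Slc25a4 were tested over all 40320 pairings of 8 libraries, two-sided. Alternatives were other size factors, DESeq2 1.42.0, limma-voom 3.58.1, other filters, libraries or sexes left out and an adipocyte covariate. The members and gene lists were chosen with earlier results of these data known. Genes named are the 9 members, Slc25a4, up to 4 called genes per list with the smallest adjusted p (the most abundant where none was called), and the 3 genes most like each member; other names are given as exceptions or paralogs. Libraries are numbered in order of deposition.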

Additional observations from a re-analysis of the deposited data

Results flagged for a closer look

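Atf3 in Tg male 1 stood apart from its group. It had 13.3 CPM there, compared with 4.74 to 6.14 CPM in the other 3 Tg males, and its gap to the nearest was 0.836 of the group's range, above Dixon's critical value for 4 samples. Of 40 groups of 4 examined (the 9 genes and Slc25a4), 1 stood out; chance gives about 1 in 20.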

How the results depend on the processing

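No paired analysis was possible because the labels carry no replicate numbers that link a Tg mouse to a WT mouse. Of 2768 comparisons of a result with an alternative, 2668 were taken as unchanged. For single genes this means the same direction and side of the threshold. For counts of genes or relations it means a count within a set factor of the main one. The 8 members called higher on average were called under every alternative run; Cebpb was added by DESeq2 (0.58) and in the fits without Tg male 3 or WT female 4 (range 0.43 to 0.71 over fits that leave out 1 library). Cebpb in females turned to -0.031 without Tg female 4 (adjusted p = 0.963), the lowest of a range up to 0.47. With each sex fitted alone, genes called were 1404 in females, against 2416, and 2871 in males, against 2492. The interaction gave 1 gene, against 0 with upper quartile factors, 11 with library totals or with the adipocyte covariate, 87 with DESeq2 (1 member, Atf4), 8 without the filter, 13 without the adipocyte-rich libraries and 0 to 23 with 1 library left out (23 without Tg male 4). Relations to Slc25a4 called were 2 of 18 with RLE factors, 1 with Spearman's rho and 0 to 3 with 1 library left out. The CARE letters were in 2 members in the 150 bases directly before the start. Library totals moved the share of calls that were higher to 70.9% against 56.4% on average and to 74.4% against 54.0% in males, where the median of all genes was 0.13 against 0.03. The cause was not tested. Low counts limit Atf3 and, in WT, Trib3.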
